A study of Mus musculus with 6 samples.

Results

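Complexes III, IV and ATP synthase were followed here in hematopoietic stem cells (HSCs) sorted from mouse bone marrow (BM), at day 1 after IGF1 or vehicle. The members were the gene rows whose symbols begin with Uqcr, Atp5 or Cox followed by a digit, together with Cyc1, Cycs, Surf1, Sco1, Sco2 and Bcs1l, which gave 58 of 21878 rows. RNA-seq of 3 control libraries and 3 IGF1 libraries was compared, all labelled as wild-type HSCs. Treated mice had received the growth factor IGF1 as 1 subcutaneous injection of 200 µg/kg. The dose, the day and the vehicle come from the methods of the study, which sorted HSCs as Lineage- Sca-1+ c-Kit+ Flt3- CD34- cells and used C57BL/6 mice as its wild type. Age was not given for these libraries, nor whether replicates came from separate mice, so p-values measure the spread between libraries, which may be technical. The labels conflict, since the extraction text speaks of irradiated mice, and the treatment label (IGF1) was followed.

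Complex III, cytochrome c and complex IV form the end of the mitochondrial electron transport chain. Complex III passes electrons from ubiquinol to cytochrome c, complex IV (cytochrome c oxidase) passes them on to oxygen, and both pump protons whose return through ATP synthase drives ATP formation. The catalytic core of complex IV and parts of the other complexes are encoded in mitochondrial DNA, and the remaining subunits, together with the assembly factors that insert heme and copper and help subunits into the membrane, are encoded in the nucleus. The study examined oxidative metabolism in HSCs of IGF1-treated mice, which is the question these genes bear on.

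Of the 58 members, 41 were structural subunits, 14 were assembly factors, and the other 3 were Cycs (cytochrome c, the mobile carrier), Atp5s (coupling factor B) and Atp5sl, which despite its symbol acts in complex I assembly. No row was a mitochondrially encoded gene, so every member is nuclear. Levels are FPKM, which count fragments per length of the gene and per depth of the library. The rule for low values, at least 1 FPKM in at least 3 libraries, was passed by 54 members. The 4 others, Cox7b2, Cox8b, Cox8c and Sco2, were listed at 0 in all 6 libraries. Cox7b2, Cox8b and Cox8c are subunit forms known from testis, heart and muscle, whereas Sco2 encodes a copper chaperone of complex IV.

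The control libraries did not form 1 group. Control replicate 2 differed from control replicates 1 and 3 by more than 1 on the log2(FPKM + 1) scale in 29 of the 54 members tested, whereas it passed that difference in 0 or 1 member against each IGF1 library. On that scale, which shrinks differences of scarce members, control replicates 1 and 3 differed from each other by at most 0.63 in any member (Cox7a1), and pairs of IGF1 libraries by at most 0.51. Over all genes, chi-square per gene on recovered reads was 1.52 between control replicates 1 and 3, 1.69 to 1.89 between IGF1 libraries, 229 to 231 between control replicate 2 and the other controls, and 24.6 to 28.0 between control replicate 2 and the IGF1 libraries, where sampling alone gives about 1. Recovered reads ran from 11206800 to 15973834 per library. Summed FPKM over all genes was 466619, 635111 and 466135 in control and 677826 to 680285 in IGF1. Summed levels and the main log2 fold changes given below carry this difference, and scaling to the total was not tried. Members made up 2.67%, 4.278% and 2.65% of that sum in control and 4.387% to 4.452% in IGF1. Cell type markers differed between libraries too. Transcripts of the proteins that the sort excluded were present, with Cd34 at 640, 265 and 634 FPKM in control and 230 to 238 in IGF1, and Flt3 at 117, 172 and 117 in control and 183 to 188 in IGF1. The summed level of 8 HSC markers was 446 to 703 FPKM in control and 446 to 463 in IGF1. Of 6 neutrophil and monocyte markers tested, 4 were called lower in IGF1, whereas Elane stood at 92.8, 576 and 92.4 FPKM in control and 692 to 709 in IGF1. The list summed to 2256 to 2434 FPKM in control and 2435 to 2443 in IGF1, most of it Mpo. The B cell list summed to 89.9 to 292 FPKM against 293 to 309, the T and NK list, nearly all Nkg7, to 357 to 776 against 768 to 787, the megakaryocyte and platelet list to 51.15 to 72.58 against 88.83 to 100.4, and 4 erythroid markers to 27.1 to 61.1 against 34.4 to 43.4. The megakaryocyte and platelet markers were mixed. Pf4 stood at 15.6, 48.6 and 15.1 FPKM in control and 63.1 to 73.7 in IGF1, and Gp9 was also higher. Itga2b stood at 32.2, 16.8 and 32.3 against 17.9 to 19.3, and the groups of Ppbp overlapped. Cd3e was listed at 0 in 2 of the 3 IGF1 libraries. Fewer cells of a type and less RNA per cell cannot be told apart in bulk RNA, and the part of these differences in the results below was not tested.

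Across the complexes, 4 members were called higher and 1 lower in IGF1 versus control HSCs, at a fold change over 2 and an adjusted p under 0.05 (limma on log2(FPKM + 1), Benjamini-Hochberg over 10449 genes). The 4 are 7.41% of the members tested, where 1.98% of all genes tested were called higher, and the 1 is 1.85%, where 4.63% of all genes were called lower. The calls over all genes were 207 higher and 484 lower, and this split was 403 and 211 with libraries scaled to their 75th percentile. That scaling moved the all-gene median from -0.18 to 0.06 in log2 fold change and gave 5 members higher and 1 lower. The counts rested on control replicate 2. Without it, 30 members (55.6%) were called higher and 1 lower, where 12.3% and 20.6% of all genes were called. Without any 1 of the other 5 libraries, no member and no gene was called by limma, although 11 to 13 members had an unadjusted p under 0.05. With all 6 libraries, 30 members lay higher and 10 lower at that unadjusted p, where 1990 and 3592 of the 10449 genes did. By groups that did not overlap, 30 members (55.6%) lay higher in every IGF1 library than in every control and 12 (22.2%) lower, where the shares of all genes were 21.9% and 37.4%.

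**Figure D1:**
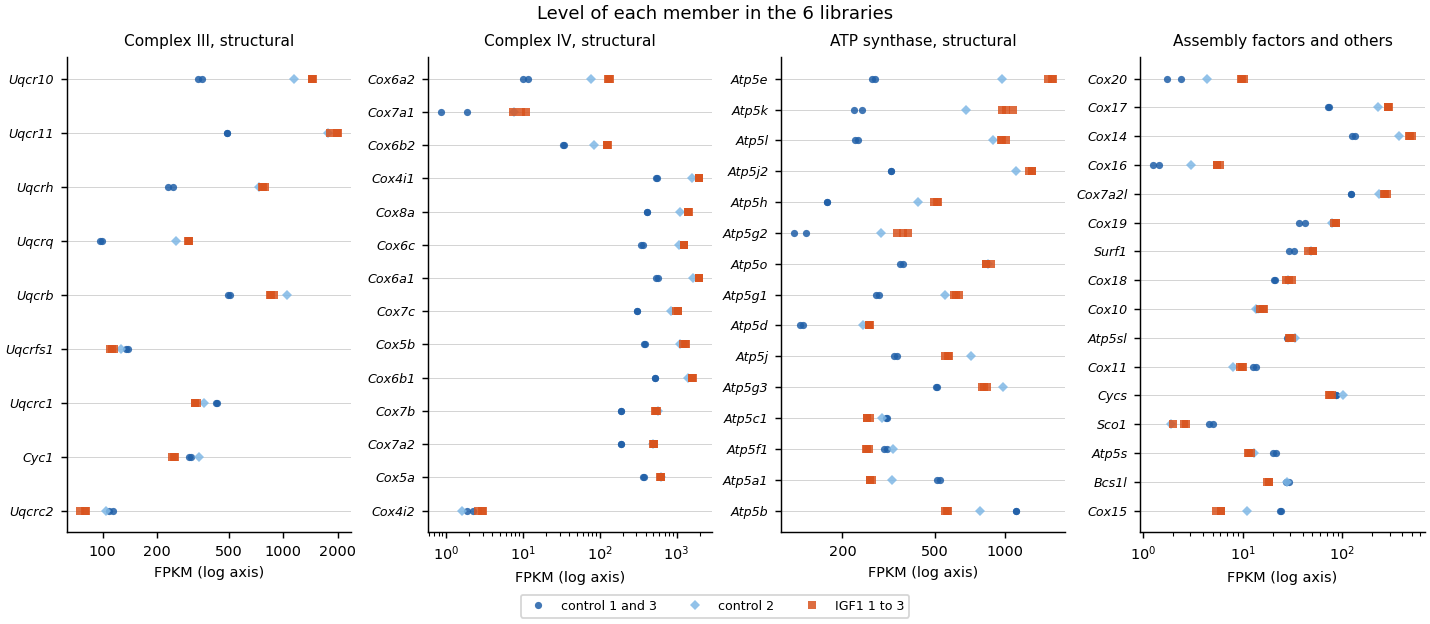
Level of the 54 members tested in each of the 6 libraries, in FPKM on a log axis, ordered within each panel by fold change. Circles are control replicates 1 and 3, diamonds control replicate 2 and squares the IGF1 libraries. Control replicate 2 sits near the squares for most members, for example Uqcrh at 736 FPKM against 246 and 230 in the other controls and 760 to 788 in IGF1.

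The called members were 3 small accessory or assembly proteins of complex IV, 1 subunit of the F1 part of ATP synthase and 1 heme enzyme. Cox20 encodes a chaperone of the mitochondrially encoded COX2 subunit. It stood at 2.41, 4.4 and 1.74 FPKM in control and at 9.92, 10.4 and 9.65 in IGF1, so the groups did not overlap. Its log2 fold change was 1.57 ± 0.26 (SE, limma adjusted p = 0.0307). Cox16, which also acts in the maturation of COX2, stood at 1.27, 3.04 and 1.44 FPKM in control and at 5.51, 5.93 and 5.59 in IGF1, a log2 fold change of 1.24 ± 0.24 (limma adjusted p = 0.0363). Both were scarce, with 37 to 164 and 55 to 195 recovered reads per library, and in both control replicate 2 lay about midway between its group and IGF1, at 44.5% and 51.8% of the way on the log2 scale. Cox6b2, the testis form of a subunit on the outer face of complex IV, stood at 33, 83.1 and 34.4 FPKM in control and at 124, 126 and 130 in IGF1 (log2 fold change 1.46 ± 0.36, limma adjusted p = 0.0457). Its log2 fold change fell to 0.41 with trends over length and GC content removed, short of 2-fold. Atp5e encodes the epsilon subunit of F1. It stood at 268, 966 and 275 FPKM in control and at 1600, 1530 and 1590 in IGF1, a log2 fold change of 1.92 ± 0.52 at the edge of the threshold (limma adjusted p = 0.0498). With trends over length and GC content removed, its log2 fold change was 0.59, short of 2-fold. The member called lower was Cox15, the heme A synthase that makes the heme of complex IV. It stood at 23.5, 11 and 24.1 FPKM in control and at 5.47, 6.15 and 6.09 in IGF1, and fell by 1.50 ± 0.30 on the log2 scale (limma adjusted p = 0.0375).

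By the GRCm38 annotation, Cox20 lies at chr1:178319130-178322693 on the plus strand and overlaps Hnrnpu on the opposite strand, which stood at 52.4 to 138 FPKM in control and 44 to 45.8 in IGF1, the reverse of Cox20. Cox16 lies at chr12:81359026-81485127 on the minus strand. The genes Adam4 and Gm4787, which it overlaps on its own strand, were at most 0.329 FPKM in any library. Gm20498, which it also overlaps on that strand, had no row, so its level is not known. Cox15 lies at chr19:43733254-43753000 on the minus strand and overlaps Cutc (21 to 35 FPKM in control, 30.9 to 34.4 in IGF1) and Entpd7 (1.32 to 1.44 and 1.54 to 1.9 FPKM) on the opposite strand. The library kit keeps strand, but whether the counting used it is not given in the sources used here, so reads shared with these partners cannot be told apart. Cox6b2 lies at chr7:4751792-4753094 and Atp5e at chr2:174461072-174464105, both on the minus strand and with no overlapping coding gene.

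The 150 bases before the start of the called members are printed because these are the members that moved past both thresholds. Sequences are from RefSeq on GRCm38.p6, 5′ to 3′ on the strand of the gene, and capitals mark the ETS core CCGGAAG on either strand, a motif of ETS family factors such as GABP that is known from promoters of respiratory genes. RefSeq lists a second start for Cox16, whose upstream bases lie within the gene and are not shown.
Cox20, chr1:178319003-178319152, plus strand: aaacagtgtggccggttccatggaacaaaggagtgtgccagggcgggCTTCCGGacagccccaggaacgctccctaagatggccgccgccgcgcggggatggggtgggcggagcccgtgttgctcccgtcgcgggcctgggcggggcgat
Cox16, chr12:81485138-81485287, minus strand: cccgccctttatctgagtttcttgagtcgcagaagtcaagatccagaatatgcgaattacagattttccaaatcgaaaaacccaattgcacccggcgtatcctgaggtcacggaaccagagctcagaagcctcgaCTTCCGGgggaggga
Cox6b2, chr7:4753095-4753244, minus strand: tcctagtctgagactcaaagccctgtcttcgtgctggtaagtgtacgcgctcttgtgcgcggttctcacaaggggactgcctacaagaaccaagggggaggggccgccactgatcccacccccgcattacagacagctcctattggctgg
Atp5e, chr2:174464102-174464251, minus strand: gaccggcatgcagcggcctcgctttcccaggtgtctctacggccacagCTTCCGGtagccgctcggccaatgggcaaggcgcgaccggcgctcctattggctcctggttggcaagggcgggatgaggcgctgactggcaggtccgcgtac
Cox15, chr19:43753001-43753150, minus strand: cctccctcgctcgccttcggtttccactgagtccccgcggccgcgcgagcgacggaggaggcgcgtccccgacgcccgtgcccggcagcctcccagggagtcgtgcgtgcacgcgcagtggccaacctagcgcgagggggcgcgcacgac

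Cox20, Cox16 and Atp5e held the ETS core in these bases, on the strand opposite to the gene. Cox15 held it in the wider window of 300 bases (250 before to 50 after the start), and Cox6b2 did not hold it there. Promoters were found for 40 of the 54 members tested, and 18 of these (45.0%) held the ETS core within the 300 bases, against 22.1% of the 8142 genes tested that had a promoter entry and 9.93% of all 27025 genes with one. The core of the NRF1 motif, GCGCANGC, was held by 13 members (32.5%), against 24.0% and 11.2%, and the YY1 motif AAGATGGCG by 3 (7.5%), against 4.07% and 1.64%. All 3 motifs were searched on both strands and overlapping matches were each counted for their own motif. Among members whose groups did not overlap, the ETS core was held by 13 of 24 that lay higher in IGF1 and by 2 of 7 that lay lower, and the NRF1 core by 8 of 24 and 3 of 7. These matches describe the letters only.

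In complex III, the 5 small subunits had log2 fold changes above 0 and the 4 large ones below 0. Signs turned for Uqcrfs1 under 75th percentile scaling, for Uqcrb under quantile normalization and for Uqcrb and Uqcr11 with the length and GC trends removed. None of the 9 structural subunits was called by limma on FPKM or by voom, although 4 higher and 3 lower ones had an unadjusted p under 0.05. Of all 10449 genes tested, 1990 lay higher and 3592 lower at that unadjusted p. The median log2 fold change of the 9 was 0.43, beside -0.18 over all genes tested, and it was -0.30 under quantile normalization and -0.06 with the trends removed. Uqcr10, a small transmembrane subunit, stood at 354, 1150 and 337 FPKM in control and at 1450, 1440 and 1460 in IGF1 (log2 fold change 1.49 ± 0.49, limma adjusted p = 0.0644). Uqcr11, the smallest, stood at 487, 1760 and 489 FPKM in control and at 1990, 2010 and 1820 in IGF1 (1.37 ± 0.53, limma adjusted p = 0.0841). The hinge protein gene Uqcrh and Uqcrq, the gene of another small subunit, had log2 fold changes of 1.16 and 1.14. In these 4 genes the groups did not overlap, whereas control replicate 2 exceeded the IGF1 libraries in Uqcrb, the gene of the subunit at the ubiquinone-binding region, at 1050 FPKM against 840 to 889 in IGF1 and 492 to 508 in the other controls. The core protein Uqcrc2, which faces the matrix, stood at 108, 104 and 114 FPKM in control and at 74.5, 79.8 and 80.4 in IGF1. Its adjusted p was 0.0383 (limma), but its log2 fold change, -0.47 ± 0.10, missed the 2-fold threshold and was -0.19 under 75th percentile scaling and -0.06 with the trends removed, where the adjusted p was not passed either. The redox-active subunits also lay below 0, at -0.35 for Cyc1, which carries the heme that hands electrons to cytochrome c, and -0.24 for Uqcrfs1, the Rieske iron-sulfur protein (0.03 with 75th percentile scaling). The value of Cyc1 was -0.08 under 75th percentile scaling. It was -0.80 under quantile normalization and -0.83 with the trends removed, and there it passed the adjusted p (0.0339 and 0.03, limma). Cyc1 stood at 308, 343 and 302 FPKM in control and at 253, 249 and 242 in IGF1, so control replicate 2 lay farther from IGF1 than the other controls. Cycs had the same order, at 87.1, 102 and 87.2 FPKM in control and 75.5, 73.5 and 78.6 in IGF1, and so did Atp5f1, the stalk subunit b of ATP synthase. Bcs1l, the ATPase that inserts the Rieske protein, stood at 29.2, 28.1 and 27.4 FPKM in control and at 18.3, 18.6 and 17.7 in IGF1. It passed the adjusted p (0.0287, limma) with a log2 fold change of -0.60 ± 0.09, short of 2-fold, and control replicate 2 stayed with the other controls. Under 75th percentile scaling and quantile normalization it had -0.34 and -0.30 and did not pass the adjusted p.

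In complex IV, all 14 structural subunits tested had values above 0, with a median log2 fold change of 1.26 and Cox6b2 as the called gene. The median was 0.50 under quantile normalization and 0.23 with length and GC trends removed. One of them, Cox5a, lay below 0 under quantile normalization (-0.16) and after trends over transcript length and base composition had been taken out (-0.25). The 10 ubiquitous forms had values from 0.48 to 1.32, and none of them was called by limma or by voom. Of the 10, 8 lay higher with an unadjusted p under 0.05, where 1990 of all 10449 genes did. The summed level of these 10 forms was 3864, 10490 and 3811 FPKM in control and 12210, 12210 and 12000 in IGF1, and the groups of that sum did not overlap. The sum over all genes, given above, did not overlap between the groups either. Cox4i1 was among the most abundant members, at 555, 1600 and 545 FPKM in control and 1950, 1960 and 1970 in IGF1 (1.32 ± 0.45, limma adjusted p = 0.0683). Cox6a1, the ubiquitous (liver) form of its subunit, stood at 574, 1630 and 546 FPKM in control and at 1950, 1940 and 1940 in IGF1 (1.28 ± 0.45). Cox8a, Cox6c, Cox7c, Cox5b and Cox6b1 had log2 fold changes from 1.31 down to 1.15. Cox7b, Cox7a2 and Cox5a lay lower, at 0.97, 0.95 and 0.48, and control replicate 2 was above at least 1 IGF1 library in Cox7b and Cox5a.

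Tissue-restricted forms of complex IV subunits were also detected, at a small part of the level of their ubiquitous partners. Cox6a2, the heart and muscle form, stood at 9.94, 77.6 and 11.7 FPKM in control and at 127, 135 and 133 in IGF1, the widest change of any member tested (log2 fold change 2.58 ± 0.75, limma adjusted p = 0.0540). It was called on recovered reads (voom), with library weights and without control replicate 2, and under none of the other settings tried. Cox6a2 made up 1.7%, 4.54% and 2.09% of the summed FPKM of Cox6a1 and Cox6a2 in control and 6.13%, 6.49% and 6.45% in IGF1, so its share was higher in each IGF1 library than in each control. Cox6b2 took 5.65% to 6.18% of the pair with Cox6b1 in control and 7.2% to 7.48% in IGF1. Cox7a1, also a heart and muscle form, was near the limit of detection at 5 to 50 recovered reads, with 0.853, 7.58 and 1.86 FPKM in control and 11, 9.41 and 7.42 in IGF1, and its groups overlapped. Cox4i2, the lung form, stood at 1.9, 1.61 and 2.25 FPKM in control and at 2.93, 3.05 and 2.61 in IGF1 (0.41 ± 0.12, limma adjusted p = 0.0568). It too was scarce, with 41 to 80 recovered reads per library. Its share of the pair with Cox4i1 was at most 0.412% in any library.

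The complex IV assembly factors did not move as 1 group. Of the 12 tested, 2 were called higher and 1 lower, where 1.98% and 4.63% of all genes tested were. The median log2 fold change was 0.59, and it was 0.68 under quantile normalization and 0.26 with the length and GC trends removed. The small copper and twin-cysteine proteins were among the higher ones. Cox17, the copper chaperone of the intermembrane space, stood at 74.4, 227 and 72.5 FPKM in control and at 295, 286 and 285 in IGF1 (1.42 ± 0.45, limma adjusted p = 0.0604). Cox14, which acts in the maturation of the COX1 subunit, stood at 126, 368 and 136 FPKM in control and at 476, 466 and 498 in IGF1 (1.37 ± 0.42, limma adjusted p = 0.0576). Cox7a2l, the supercomplex factor SCAF1, and Cox19, a copper delivery protein, had log2 fold changes of 0.84 and 0.75 (-0.02 for Cox19 with the length and GC trends removed), and in both the groups did not overlap. Next to these, the enzymes and inserters with longer coding sequences, Cox15 aside, had log2 fold changes between -0.44 and 0.43. Surf1, which acts in heme A insertion, was at 29.3, 48.6 and 32.5 FPKM in control and 50.7, 45.2 and 50.8 in IGF1, and its groups overlapped. Cox18, which inserts COX2 into the membrane, and Cox10, the heme O synthase, had log2 fold changes of 0.31 and 0.16. For Cox10 it was 0.42 under 75th percentile scaling and 0.49 under quantile normalization. There Cox10 passed the adjusted p (0.0457 and 0.0481, limma), short of 2-fold. Cox11, which delivers copper to COX1, had -0.18, which lay above 0 under 75th percentile scaling, quantile normalization and trend removal (0.07 to 0.15). Sco1, which delivers copper to COX2, had -0.44 (0.18 with the trends removed) at 1.9 to 5.11 FPKM. Cox10 and Cox15 act one after the other in heme A synthesis. Cox10 stood at 14.4, 13.8 and 14 FPKM in control and at 16.6, 14.9 and 16.1 in IGF1, while Cox15 fell.

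In ATP synthase, 11 structural subunits had log2 fold changes above 0 and 4 below 0, among these both subunits of the catalytic hexamer. The median log2 fold change of the 15 structural subunits was 0.81 (0.29 under quantile normalization and 0.01 with the trends removed). By limma Atp5e was called higher and none lower, and voom called none in either direction. With an unadjusted p under 0.05, 8 lay higher and 3 lower, where 1990 and 3592 of all 10449 genes did. Atp5b, the catalytic beta subunit and the most abundant subunit of the complex in control replicates 1 and 3, stood at 1120, 779 and 1110 FPKM in control and at 565, 571 and 554 in IGF1. It passed the adjusted p (0.0458, limma) with a log2 fold change of -0.81 ± 0.20, short of 2-fold. Under 75th percentile scaling (-0.54) and quantile normalization (-1.53) it did not pass the adjusted p. Atp5a1, the alpha subunit with which it alternates in the hexamer, stood at 512, 328 and 528 FPKM in control and at 267, 263 and 262 in IGF1 (-0.76 ± 0.21, limma adjusted p = 0.0523). The gamma subunit of the rotor, Atp5c1, had a log2 fold change of -0.24 (0.04 with 75th percentile scaling) and Atp5f1 -0.29. In contrast, the small membrane subunits e, f and g had positive values. Atp5k (subunit e) stood at 243, 680 and 225 FPKM in control and at 1080, 1010 and 969 in IGF1 (1.61 ± 0.44, limma adjusted p = 0.0508), just outside the threshold that Atp5e just met. It was called under 75th percentile scaling and quantile normalization, and its log2 fold change was 0.00 with the trends removed. Atp5j2 (subunit f) stood at 323, 1110 and 324 FPKM in control and at 1310, 1300 and 1270 in IGF1 (1.41 ± 0.50), and Atp5l (subunit g) had 1.44. Of the stalk genes, Atp5h (subunit d) had 1.12, Atp5o (the oligomycin sensitivity protein) 0.81 and Atp5j (coupling factor 6) 0.39, and control replicate 2 exceeded the IGF1 libraries in Atp5j, at 714 FPKM against 554 to 576.

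The c ring of ATP synthase is encoded by Atp5g1, Atp5g2 and Atp5g3, whose mature proteins are the same. Their summed level was 933.7, 1825 and 909.9 FPKM in control and 1798, 1798 and 1792 in IGF1, so control replicate 2 lay with the IGF1 libraries. The mix of the genes differed. Atp5g3 took 54.4%, 53.6% and 55.7% of the sum in control and 44.4%, 46.6% and 45.2% in IGF1, and here control replicate 2 stayed with the other controls. Atp5g1 took 30.3% to 30.7% in control and 33.6% to 35.4% in IGF1, and Atp5g2 13.7% to 16.1% and 19.1% to 21.2%. The groups did not overlap in any of these shares. With 3 libraries per group an exact permutation test cannot go below p = 0.1, so none was run. The log2 fold changes of the genes were 1.07 for Atp5g2, 0.81 for Atp5g1 and 0.37 for Atp5g3, and that of Atp5g3 lay below 0 under quantile normalization (-0.43) and trend removal (-0.39).

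**Figure D2:**
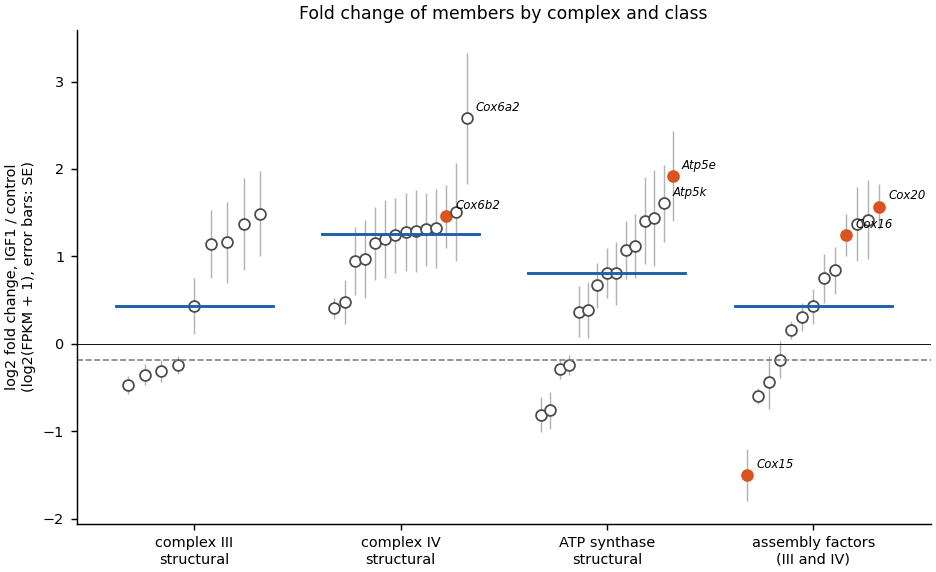
Log2 fold change (IGF1 over control, on log2(FPKM + 1)) of each structural subunit by complex and of the 13 assembly factors tested, with bars for the SE. Filled points are called members, solid lines are group medians (0.43, 1.26, 0.81 and 0.43) and the dashed line is the median of all genes tested (-0.18); under 75th percentile scaling, which moves that line to 0.06, the open points of Uqcrfs1, Atp5c1 and Cox11 lie just above 0, and under quantile normalization Cox11 also lies above 0 and Uqcrb, Cox5a, Atp5g3 and Atp5j below it.

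Taken by class, the median log2 fold change was 1.10 for the 38 structural subunits tested and 0.43 for the 13 assembly factors, and no test of this difference was made because members are not replicates. Structural subunits held 2 called genes, both higher, and assembly factors 3, of which 2 were higher and 1 lower. Of all genes tested, 1.98% were called higher and 4.63% lower. The assembly factors spread as widely as the subunits, from -1.50 to 1.57 against -0.81 to 2.58. Without control replicate 2 the medians were 1.53 and 0.65, and 24 subunits and 6 assembly factors were called higher, where 12.3% of all genes were. Under quantile normalization the order of the classes turned, with 0.46 for subunits and 0.68 for assembly factors. Subunits were the more abundant class, with median levels of 308, 658 and 305 FPKM in control and 588, 597 and 578 in IGF1, against 23.5, 28.1 and 24.1 and 18.3, 18.6 and 17.7 for assembly factors.

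Within both classes the fold change ran with the length of the coding sequence. A limit of 600 nt was set after the values were seen, and the counts are descriptions. Of the structural subunits with a shorter coding sequence, 29 of 29 tested had a log2 fold change above 0 (4 of them, Uqcrb, Cox5a, Atp5g3 and Atp5j, lay below 0 under quantile normalization), and 23 had groups that did not overlap. Of the 9 with a longer one, 8 lay below 0 and had groups that did not overlap (Uqcrfs1 and Atp5c1 lay at 0.03 and 0.04 with 75th percentile scaling), and the exception was Atp5o at 642 nt. The short ones summed to 8242, 22450 and 8111 FPKM in control and 25940, 25870 and 25400 in IGF1. The long ones summed to 3582, 3512 and 3593 FPKM in control and 2929, 2950 and 2960 in IGF1, a sum in which control replicate 2 stayed with the other controls. Within it, opposite differences offset each other. Control replicate 2 lay below the other controls in Atp5b (779 against 1120 and 1110) and Atp5a1 (328 against 512 and 528). In Atp5o it lay above them (842 against 355 and 366). All 6 short assembly factors lay above 0 with groups that did not overlap (Cox19 lay at -0.02 with the trends removed), and of the 7 long ones 3 lay above 0 and 4 below. Of all genes tested, whatever their length, 21.9% lay higher and 37.4% lower in groups that did not overlap. Over the 54 members, which share libraries, Spearman's rho of fold change was -0.82 with coding length and 0.24 with GC content, and over all genes tested it was -0.21 and 0.40.

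Below 600 nt, other genes of the same length also lay above 0, by less. Among the 208 other genes with a coding sequence under 300 nt, the median log2 fold change was 0.78 and 83.2% lay above 0, where the 19 members had a median of 1.37 and all lay above 0. From 300 to 600 nt the median was 0.38 over 1265 other genes and 0.84 over 17 members, of which Cycs lay below 0. From 600 to 900 nt it was -0.08 over other genes and -0.24 over 8 members, and from 900 to 1500 nt -0.29 and -0.33. At 1500 nt or more it was -0.30 over 4311 other genes and -0.78 over 2 members. Classed instead by the length that the authors' scaling implies, genes under 600 nt had a median of 1.23 over 208 other genes and 1.31 over 15 members. From 600 to 1000 nt of that length the medians were 0.78 and 0.95, from 1000 to 1500 nt 0.31 and 0.64, from 1500 to 2000 nt -0.07 and -0.30, and above 2000 nt -0.32 and -0.23. When trends over length and GC content were fitted to all genes and subtracted, the median was 0.08 for structural subunits and 0.18 for assembly factors, beside -0.07 for all genes. The short subunits then had a median of 0.21 and the long ones -0.34. Members that kept a log2 fold change over 1 were Cox16 (1.87), Cox20 (1.71), Cox6a2 (1.66), Uqcrq (1.16), Cox17 (1.13) and Atp5h (1.06), and Cox15 kept -1.05. Of these, Cox16, Cox17 and Cox20 were called higher and Cox15 lower in that fit, so the assembly factors held every called member and the structural subunits none. Over all 10352 genes in that fit, 158 were called higher and 147 lower.

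**Figure D3:**
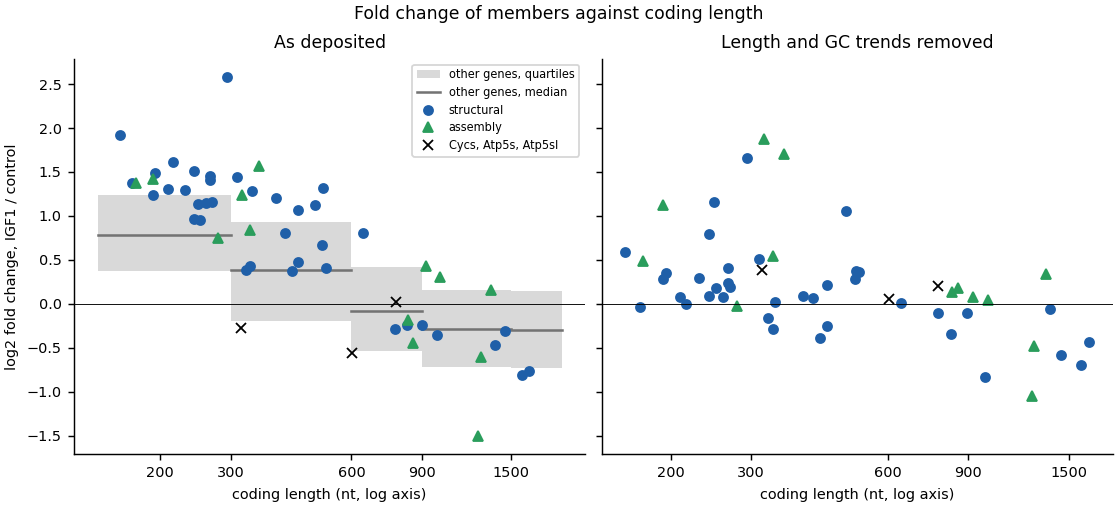
Log2 fold change of members (IGF1 over control) against coding length in nt on a log axis, as deposited (left) and after removal of trends over length and GC content (right). Grey lines and bands are the median and quartiles of the other genes in each length range; in the left panel the 19 members under 300 nt lie above 0, with a median of 1.37 against 0.78 for other genes, and in the right panel the structural subunits centre on 0.08.

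Ratios between members of 1 complex, or of 1 assembly route, differed between the groups. The pairs below were picked after their values were seen and carry no test. The FPKM of Atp5e relative to Atp5b, both parts of F1, was 0.24, 1.24 and 0.248 in control and 2.83, 2.68 and 2.86 in IGF1. That of Uqcr10 relative to Uqcrc2 was 3.27, 11.1 and 2.96 in control and 19.5, 18 and 18.1 in IGF1. Cox20 relative to Cox15 stood at 0.103, 0.4 and 0.0723 in control and at 1.81, 1.69 and 1.58 in IGF1. In each of these ratios, control replicate 2 took an intermediate value. Across the 42 members that differed by more than 0.5 on the log2 scale between control replicates 1 and 3 and the IGF1 libraries, it lay at a median of 85.9% of the distance, against 80.6% over 6619 such genes, and beyond the IGF1 libraries in 7.

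**Figure D4:**
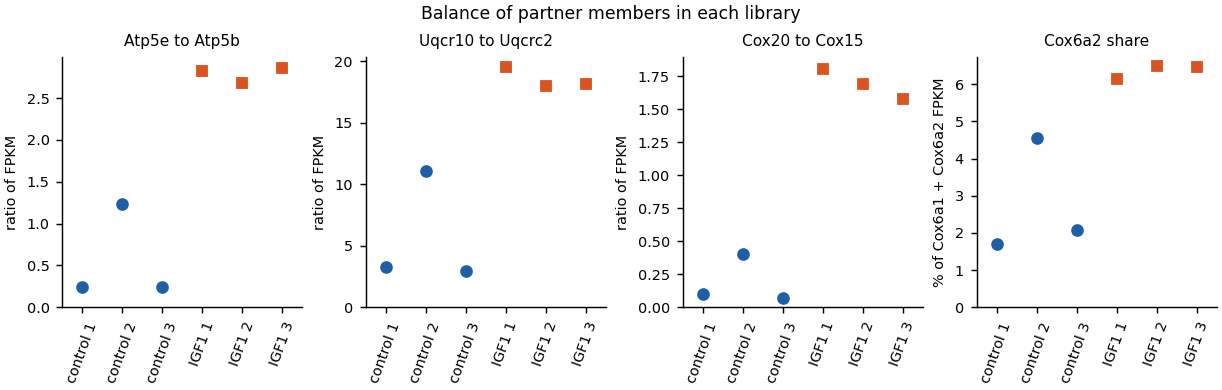
Ratio of FPKM between paired members, and the share of Cox6a2 in the summed FPKM of Cox6a1 and Cox6a2 in percent, in each of the 6 libraries on linear axes from 0. Circles are control and squares IGF1 libraries; the Atp5e to Atp5b ratio is 0.24 and 0.248 in control replicates 1 and 3, 1.24 in control replicate 2 and 2.68 to 2.86 in IGF1.

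Partner genes with other symbols were counted from a list of 40 assembly factors, late-named subunits, complex II genes and carriers. Of these, 38 had a row, 37 were tested (Pet117 was listed at 0), 1 was called higher and 3 lower, with a median log2 fold change of 0.13. The shares of all genes called were 1.98% and 4.63%. Groups did not overlap for 13 genes of the list that lay higher and 16 that lay lower. Pet100, a complex IV assembly factor, stood at 27.2, 97.6 and 28.7 FPKM in control and at 161, 165 and 160 in IGF1 (1.91 ± 0.49, limma adjusted p = 0.0472). Lrpprc, which stabilises mitochondrial mRNAs, stood at 23.2, 10.1 and 24.2 FPKM in control and at 5.44, 5.04 and 5.42 in IGF1 (-1.59 ± 0.33, limma adjusted p = 0.0382). Atpaf1, the chaperone of the beta subunit in F1 assembly, stood at 10.6, 3.57 and 10.2 FPKM in control and at 1.77, 1.97 and 1.86 in IGF1 (-1.55 ± 0.37, limma adjusted p = 0.0443). Hccs, the lyase that attaches heme to cytochrome c and c1, fell by 1.65 ± 0.41 on the log2 scale (limma adjusted p = 0.0459). Genes of further proteins found in the complexes themselves were not called, with log2 fold changes of 1.42 for Usmg5 and 1.24 for 2010107E04Rik, which encode small membrane proteins of ATP synthase, and 0.15 for Ndufa4, a subunit of complex IV, at 741 to 1040 FPKM in control and 908 to 962 in IGF1. With the length and GC trends removed, Usmg5 had 0.27 and 2010107E04Rik 0.29, and the sign of Ndufa4 turned (-0.73). The 8 complex II genes, which feed electrons to the chain from succinate, had a median of -0.20, with 0 calls by limma or voom, 4 at an unadjusted p under 0.05, and 1 gene above and 4 below in groups that did not overlap, where the shares of all genes were 21.9% and 37.4%. At the unadjusted p, 1990 of all 10449 genes tested lay higher and 3592 lower.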

How the data were processed

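HSC libraries of 3 control and 3 IGF1 samples were analysed, with groups from the sample labels. Per the labels, reads were processed with fastp, HISAT2 and StringTie on GRCm38 (mm10), whereas the methods of the study name fastp, RSEM and DESeq2. The deposited values, 1 per gene symbol and library, were taken as FPKM. They were first multiplied by a relative depth per library that was found from the same values. Within each of the 15640 genes above 0 they were then whole multiples of 1 step (tolerance 0.002). This gave recovered reads and an implied length, but it does not single out FPKM from other scalings by length and library. Genes reaching 1 FPKM in 3 or more libraries were tested on log2(FPKM + 1), where fold changes of low genes are understated, with limma 3.58.1 in R 4.3.3 (lmFit, eBayes with trend). Alternatives were 75th percentile scaling, quantile normalization, no filter or 5 FPKM, a pseudocount of 0.1, no variance trend, a replicate block, library weights, loess removal of length and GC trends, leaving out each library and, chosen after seeing the data, voom on recovered reads. Coordinates and coding lengths came from GENCODE annotation of GRCm38 and promoters from RefSeq. Members and lists were chosen with earlier results of these data known. Named genes were the called members, the 3 most abundant and the 2 largest changes each way per complex and class, the assembly factors, Cyc1, Cycs and paralogue groups. Members named beyond these, and those given for the length, promoter and ratio descriptions, were chosen after their values were seen. Of the erythroid list, 1 marker is not reported here.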

Additional observations from a re-analysis of the deposited data

How the results depend on the processing

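The counts of called members, 4 higher and 1 lower, turned on the libraries. Leaving out 1 library gave 0 to 30 members higher and 0 to 1 lower, with 30 and 1 without control replicate 2 and 0 and 0 without any other. Library weights, which gave control replicate 2 a weight of 0.0137, called 30 higher, no filter called 2 higher, and the replicate block called 0 higher and 0 lower (limma, with 33 members at an unadjusted p under 0.05). After group means were taken out, same-numbered libraries had correlations of -0.0572, -0.0503 and 0.00567. These cannot decide whether replicate numbers paired the libraries, because the spread among controls is mostly that of control replicate 2. The remaining alternatives gave 3 to 5 higher and 1 lower. Cox15, Cox16 and Cox20 were called in every setting that called any member, Atp5e was lost with no filter, 5 FPKM, a pseudocount of 0.1, trend removal and voom, and Cox6b2 with no filter and trend removal. The median of structural subunits (1.10) moved to 0.46 under quantile normalization and 0.08 with length and GC trends removed, and that of assembly factors (0.43) to 0.70 under 75th percentile scaling, 0.68 under quantile normalization and 0.18 with the trends removed. Signs turned for Cox11 (0.07), Uqcrfs1 (0.03) and Atp5c1 (0.04) under 75th percentile scaling, for Atp5g3 (-0.43), Cox11 (0.15), Cox5a (-0.16), Atp5j (-0.18) and Uqcrb (-0.38) under quantile normalization, and with the trends removed for Atp5g3 (-0.39), Cox11 (0.14), Cox19 (-0.02), Cox5a (-0.25), Cycs (0.38), Sco1 (0.18), Atp5j (-0.16), Atp5s (0.06), Uqcr11 (-0.04) and Uqcrb (-0.29). The causes were not tested. Depth limits Cox7a1, Cox16, Cox20 and Cox4i2, with 5, 55, 37 and 41 reads in their lowest library.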
